A study of Mus musculus with 6 samples.

Results

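The genes described here are 10 genes of antigen presentation to CD4+ T cells in bone marrow-derived basophils (BMBAs). They were chosen by name: the class II chain genes H2-Aa, H2-Ab1 and H2-Eb1, the invariant chain gene Cd74, the peptide exchange genes H2-DMa and H2-DMb1, the class II transactivator gene Ciita, and the costimulatory genes Cd80, Cd86 and Cd40. All 10 were found among the 37043 gene symbols of the count table, and all 10 passed the filter on low counts.

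The cells came from wild-type C57BL/6J mice whose age the sources used here do not give. Bone marrow was cultured for 7 days at 0.3 ng/mL of a cytokine that the labels leave unnamed and that is IL-3 in the methods of the study, and basophils were then enriched on magnetic beads by their surface CD49b. The enriched cells received PBS or 10 ng/mL IL-3 for 6 h, and 3 libraries per group were sequenced from poly(A) RNA. Bead enrichment for CD49b is not a sort to purity, so each library may hold RNA of other cells of the culture, and in such bulk RNA fewer cells of a type cannot be told apart from less RNA per cell.

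MHC class II molecules are pairs of an alpha and a beta chain that carry peptides from endocytosed proteins to the cell surface. The invariant chain, encoded by Cd74, guides new class II molecules to endosomes and blocks their groove until proteases digest it, and H2-DM then exchanges the remaining fragment for peptide. CIITA is the coactivator that switches these genes on as a set, through RFX, CREB and NF-Y proteins bound at the X and Y boxes of their promoters. CD80 and CD86 bind CD28 and CTLA4 on T cells, and CD40 receives the signal of CD40 ligand. Basophils are known mainly for IgE-triggered release of mediators and for IL-4, and how far they act as antigen-presenting cells has been debated. C57BL/6 mice make no I-E alpha chain, so the I-E beta chain of H2-Eb1 lacks its usual partner in these cells.

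Promoter sequence is shown because the class II genes moved together and because other class II genes beside them moved the opposite way. RefSeq promoter windows (build GRCm38.p6, 250 bases before to 50 bases after the start) were found for 5 of the 10 genes, 4 of them class II genes, and for H2-Oa and H2-Ob. They were searched on both strands for AACNNATG, letters within the X box, and for ATTGG, the Y box read as the reverse of CCAAT. Of 32851 promoters, 8.86% held AACNNATG, 37.4% held ATTGG and 0.174% held AACNNATG followed by ATTGG after 15 to 35 bases. The letters were chosen after these windows were read. Stretches of 80 bases around ATTGG follow, 5′ to 3′ on the strand of the gene, with both motifs in capitals.
H2-Aa: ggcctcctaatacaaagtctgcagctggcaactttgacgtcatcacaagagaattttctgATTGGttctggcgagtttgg
H2-Eb1: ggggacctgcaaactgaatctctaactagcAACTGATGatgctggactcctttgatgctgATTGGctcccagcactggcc
H2-Oa: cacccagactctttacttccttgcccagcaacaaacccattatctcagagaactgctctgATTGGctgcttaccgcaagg
H2-Ob: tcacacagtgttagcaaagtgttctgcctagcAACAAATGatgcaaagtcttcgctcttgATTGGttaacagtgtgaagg

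The stretch of H2-Aa lies at chr17:34287852-34287931 on the minus strand, and its ATTGG begins 48 bases before the start. That of H2-Eb1 lies at chr17:34305748-34305827 on the plus strand, with 22 bases between AACTGATG and ATTGG. The stretch of H2-Oa is chr17:34092276-34092355 and that of H2-Ob is chr17:34238788-34238867, both on the plus strand, with 20 bases between the motifs of H2-Ob. H2-DMb1 held the combined motif too, with 23 bases in between. The combined motif was thus present in H2-Eb1 and H2-DMb1, which fell with IL-3, and in H2-Ob, which rose. ATTGG without AACNNATG upstream was present in H2-Aa, which fell, and in H2-Oa, which rose. These letters, chosen after the windows were read, thus did not sort the genes by direction. Whether the X and Y boxes themselves differ between the genes was not tested. Of the other windows, that of H2-DMb2 held the combined motif, those of H2-DMa held at most ATTGG, and the Cd80 window held neither motif.

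The 6 libraries held 10537540 to 13999287 counts, and 16675 genes passed the filter on low counts. Levels are given in CPM, that is, counts divided by a library size corrected by the TMM method (trimmed mean of M values) and brought to the usual common scale, and a count of 3, the limit that a count of 0 allows, corresponded to 0.233 to 0.296 CPM (counting error only). A gene was called when its edgeR quasi-likelihood p, adjusted over all genes tested by Benjamini-Hochberg, was below 0.05. By this rule 38.2% of the genes tested passed the threshold, 18.0% with a higher level and 20.2% with a lower level in IL-3. The libraries of the groups did not overlap for 48.2% of the genes, with IL-3 on the upper side for 23.8% and on the lower side for 24.4%. With library totals in place of TMM the median log2 fold change of all genes moved from -0.0033 to -0.17, and the share of calls that were higher moved from 47.1% to 25.2%. The labels do not say whether the cultures came from separate mice, so the p-values measure only the spread between these samples.

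All 7 class II genes were lower in IL-3, by a median of -0.75 on the log2 scale against a median of -0.0033 over all genes tested, while Cd80 and Cd86 were higher and Cd40 was not called. The calls thus took in 9 of the 10 genes, 7 lower and 2 higher, beside the 38.2% of all genes (20.2% lower, 18.0% higher). The libraries of the groups did not overlap for those 9 genes, 7 of them lower and 2 higher, beside 24.4% and 23.8% of all genes in these directions. The class II genes fell to between 47.9% and 79.3% of their PBS mean and did not disappear.

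**Figure D1:**
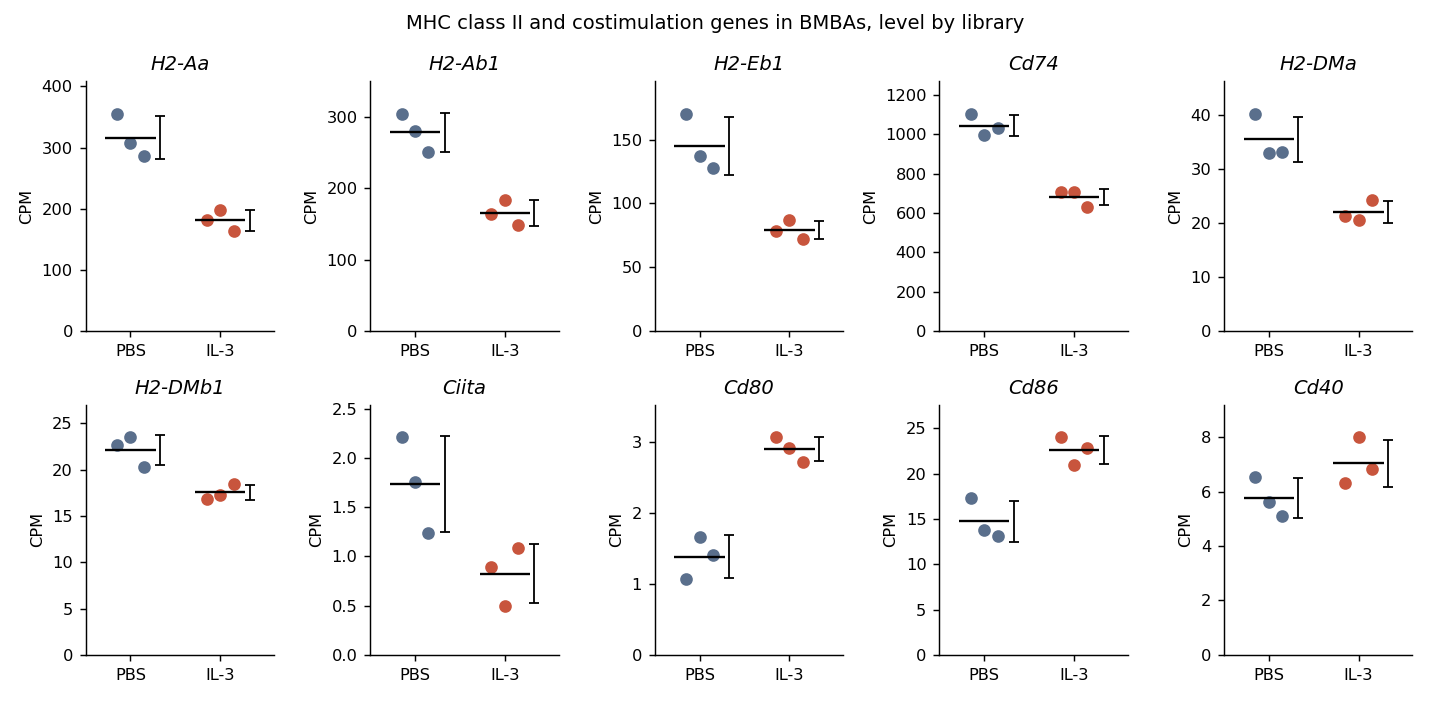
Level of the 10 genes by library in CPM (vertical axes, each starting at 0), with PBS in blue and IL-3 in red, a horizontal line at the mean and a bar of 1 SD either side (n = 3 libraries per group). The 3 IL-3 libraries lie below the 3 PBS libraries for the 7 class II genes and above them for Cd80 and Cd86, and the groups overlap for Cd40.

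H2-Aa encodes the alpha chain of I-A, the class II molecule that C57BL/6 cells display. It lies at chr17:34282744-34287823 on the minus strand (GENCODE M21, GRCm38, as for all genes below). The PBS libraries gave 355, 307 and 286 CPM and the IL-3 libraries gave 182, 198 and 164 CPM. The lowest PBS library was therefore well above the highest IL-3 library. The mean went from 316 ± 35.5 to 181 ± 16.9 CPM (SD, n = 3), a log2 fold change of -0.80 (SE 0.0797, 95% interval -0.97 to -0.63, edgeR adjusted p = 7.76e-07).

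H2-Ab1, the beta chain of I-A, lies nearby on the plus strand at chr17:34257689-34269419. It was measured at 305, 280 and 250.4 CPM with PBS and at 164, 184 and 149 CPM in IL-3. The groups were again apart, and the order of the libraries within each group was that of H2-Aa. The means were 278 ± 27.2 and 166 ± 17.6 CPM (SD, n = 3), with a log2 fold change of -0.75 (SE 0.0798, edgeR adjusted p = 1.68e-06).

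H2-Eb1, the I-E beta chain (chr17:34305867-34316674), had 170.2, 137 and 127 CPM with PBS and 78.6, 86.7 and 72.3 CPM in IL-3. Every IL-3 library lay below every PBS library. Its mean fell from 145 ± 22.5 to 79.2 ± 7.22 CPM (SD, n = 3; log2 fold change -0.87, SE 0.0951, edgeR adjusted p = 2.21e-06). Summed over the 3 chains, the libraries held 830.4, 724 and 664 CPM with PBS and 424, 469 and 385 CPM in IL-3, so that the IL-3 mean was 57.6% of the PBS mean. PBS replicate 1 was the highest library for each of the chains.

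Cd74, the invariant chain (chr18:60803848-60812652), was the most abundant of the 10 genes per length of exon. The PBS libraries gave 1104, 996 and 1029.7 CPM and the IL-3 libraries gave 704, 704 and 633 CPM. These groups were apart by more than the range of either. The mean went from 1043 ± 54.9 to 680.2 ± 41.2 CPM (SD, n = 3), a log2 fold change of -0.62 (SE 0.0543, edgeR adjusted p = 1.89e-07). It had the smallest standard error of the 10 genes.

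H2-DMa encodes the alpha chain of the peptide exchange factor H2-DM (chr17:34119541-34139101). It stood at 40.2, 32.97 and 33.2 CPM with PBS and at 21.3, 20.5 and 24.3 CPM in IL-3. The IL-3 libraries were all lower, and the log2 fold change was -0.69 (SE 0.107, edgeR adjusted p = 9.56e-05). Its exons overlap those of Brd2 on the opposite strand, which had 21034 counts over the 6 libraries, and the sources used here do not say whether the counting used strand.

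H2-DMb1, the beta chain of H2-DM (chr17:34153072-34160230), had the smallest log2 fold change among the class II genes. It had 22.7, 23.5 and 20.3 CPM with PBS and 16.9, 17.3 and 18.5 CPM in IL-3. The groups did not overlap, but the nearest libraries of both groups were close. The log2 fold change was -0.33 (SE 0.109, 95% interval -0.57 to -0.10, edgeR adjusted p = 0.0232). Of its 50-base stretches, 22.7% also occur in another gene, mostly in H2-DMb2, so the split of reads between these genes is uncertain. The call was lost without PBS replicate 1 (edgeR adjusted p = 0.0589), PBS replicate 2 (0.0814), IL-3 replicate 1 (0.0692) or IL-3 replicate 2 (0.0688).

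Ciita, the class II transactivator (chr16:10480059-10528418), was the rarest of the 10 genes per length and rested on few reads. It had 27, 20 and 14 counts in PBS and 9, 6 and 14 counts in IL-3. In CPM the values were 2.21, 1.75 and 1.23 in PBS and 0.889, 0.4997 and 1.09 in IL-3, with PBS replicate 3 and IL-3 replicate 3 close together. The log2 fold change was -1.06 with a wide 95% interval of -1.86 to -0.26 (SE 0.377, edgeR adjusted p = 0.0359). The call was lost without PBS replicate 1 (log2 fold change -0.85, edgeR adjusted p = 0.158), PBS replicate 2 (0.0796), IL-3 replicate 1 (0.0735) or IL-3 replicate 2 (-0.80, 0.160), and with the replicate numbers as a block (0.0597). Its exons overlap those of Dexi on the opposite strand, a gene with 530 counts in all.

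Cd80 and Cd86 encode B7 proteins, and Cd80 was the rarer of them per length of exon. Cd80 (chr16:38455561-38496335) had 13, 19 and 16 counts in PBS and 31, 35 and 35 counts in IL-3. Every IL-3 library was above every PBS library, and the mean went from 1.38 ± 0.302 to 2.90 ± 0.174 CPM (SD, n = 3). The log2 fold change was 1.07 (SE 0.279, 95% interval 0.47 to 1.66, edgeR adjusted p = 0.00646).

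Cd86 lies on the same chromosome at chr16:36603869-36666081, on the minus strand. It was measured at 17.3, 13.8 and 13.1 CPM with PBS and at 23.99, 20.9 and 22.8 CPM in IL-3. PBS replicate 1, which was highest for the class II chains, was also the highest PBS library for Cd86 and still lay below the IL-3 libraries. The log2 fold change was 0.61 (SE 0.126, edgeR adjusted p = 0.00116).

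Cd40, the receptor for CD40 ligand (chr2:165055627-165072948), gave 6.54, 5.61 and 5.11 CPM with PBS and 6.32, 7.99 and 6.83 CPM in IL-3. The lowest IL-3 library lay below the highest PBS library. The log2 fold change was 0.29 (SE 0.177, edgeR adjusted p = 0.217), with a 95% interval of -0.08 to 0.67 that leaves out neither no difference nor a rise of the size seen in Cd86.

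**Figure D2:**
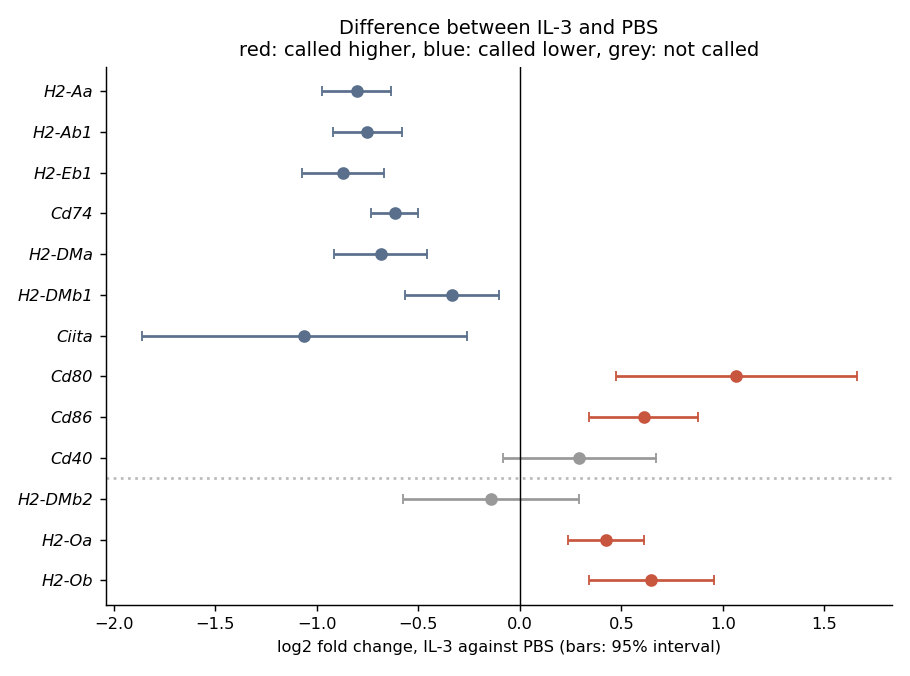
Log2 fold change of IL-3 against PBS (horizontal axis) with its 95% interval from edgeR (bars) for the 10 genes, above the dotted line, and for 3 other class II genes below it, in red where called higher, blue where called lower and grey where not called. The 7 class II genes run from -1.06 to -0.33, whereas H2-Oa at 0.42 and H2-Ob at 0.65 lie to the right of 0.

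Levels of different genes were compared per kilobase of exon. In PBS Cd74 stood highest at 621 ± 32.7 CPM per kb (SD, n = 3), above H2-Ab1 at 108 ± 10.6, H2-Aa at 83.3 ± 9.34 and H2-Eb1 at 74.5 ± 11.6 CPM per kb. The libraries of H2-Aa (75.4 to 93.6 CPM per kb) and H2-Eb1 (65.5 to 87.6 CPM per kb) overlapped between libraries, but within each of the 6 libraries of both groups H2-Aa was above H2-Eb1, by a ratio of 1.07 to 1.19. H2-Ab1 was above H2-Aa in the same way, by a ratio of 1.27 to 1.38. The size of that gap depended on the length used, since with the longest transcript in place of all exons the PBS means were 229.8 CPM per kb for H2-Ab1 and 98.1 CPM per kb for H2-Aa. The H2-DM chains were lower, at 13.2 ± 0.970 CPM per kb for H2-DMb1 and 10.3 ± 1.20 CPM per kb for H2-DMa. With the longest transcript as the length, that order turned, with 17.7 CPM per kb for H2-DMa and 15.8 CPM per kb for H2-DMb1.

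The costimulatory genes and Ciita lay below the class II chains in both groups. Cd86 had 4.03 ± 0.621, Cd40 1.69 ± 0.214, Cd80 0.373 ± 0.0816 and Ciita 0.182 ± 0.0512 CPM per kb in PBS. With the longest transcript Ciita came to 0.288 CPM per kb and remained the lowest of the 10 genes. In IL-3 the class II genes came down to 405 CPM per kb for Cd74, 64.5 for H2-Ab1, 47.7 for H2-Aa and 40.7 for H2-Eb1, and the order among these genes stayed. Cd86 rose to 6.16 CPM per kb and thereby came close to H2-DMa, which fell to 6.39 CPM per kb. With the longest transcript as the length they were further apart in IL-3, at 8.89 CPM per kb for Cd86 and 10.99 CPM per kb for H2-DMa.

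H2-O, made of H2-Oa and H2-Ob, is the inhibitor of H2-DM, and it was higher in IL-3 while the H2-DM genes were lower. H2-Oa had 37.3, 43.0 and 42.8 CPM with PBS and 52.7, 60.9 and 51.6 CPM in IL-3 (log2 fold change 0.42, SE 0.0875, edgeR adjusted p = 0.00113). H2-Ob had 6.79, 8.59 and 7.66 CPM with PBS and 12.1, 11.4 and 12.5 CPM in IL-3 (log2 fold change 0.65, SE 0.145, edgeR adjusted p = 0.00216). The groups did not overlap for either gene. Among the 5 other class II genes listed, H2-DMb2 was tested too and not called (log2 fold change -0.14, edgeR adjusted p = 0.629), with 24.8% of its 50-base stretches shared, mostly with H2-DMb1. H2-Eb2 had at most 10 counts in a library and was not tested, and H2-Ea was not analysed here.

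Ratios of counts per kb within a library do not depend on the scaling of library sizes. For H2-Oa over H2-DMa the ratio was 2.27, 3.20 and 3.16 in PBS and 6.06, 7.28 and 5.21 in IL-3, a log2 difference of 1.11 (SE 0.214). For H2-Ob over H2-DMb1 it was 0.0936, 0.114 and 0.118 in PBS and 0.225, 0.206 and 0.211 in IL-3, a log2 difference of 0.99 (SE 0.110). In both cases every IL-3 library was above every PBS library. For H2-DMa over H2-DMb1 the ratio was 0.866, 0.684 and 0.796 in PBS and 0.616, 0.577 and 0.641 in IL-3, a log2 difference of -0.35 (SE 0.109). The exact two-sided permutation test gave p = 0.1 for each of these 3 ratios, the smallest p that 3 against 3 libraries allow, and 0.2 after Benjamini-Hochberg adjustment over the 6 ratios computed. The ratios were chosen after the values of the genes had been seen. The groups overlapped for the other 3 ratios, with log2 differences of -0.05 for H2-Aa over H2-Ab1 (exact permutation p = 0.3), -0.18 for H2-Aa over Cd74 (0.2) and -0.47 for Cd86 over Cd80 (0.2).

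**Figure D3:**
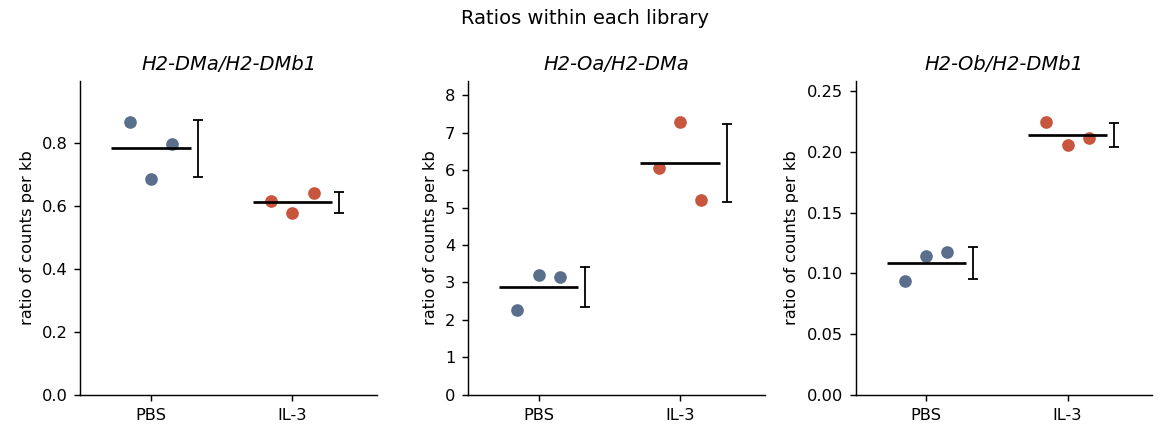
Ratio of counts per kb of exon within each library (vertical axes, each starting at 0) for H2-DMa over H2-DMb1, H2-Oa over H2-DMa and H2-Ob over H2-DMb1, with PBS in blue, IL-3 in red, a line at the mean and a bar of 1 SD either side (n = 3 libraries per group). The 3 IL-3 libraries are below the PBS libraries in the first panel and above them in the others.

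Transcription factors and receptors known to act on class II genes went both ways. Of 14 listed genes, all tested, 4 rose and 3 fell, which is 50% beside the 38.2% of all genes, at a median log2 fold change of -0.01. With library totals in place of TMM 3 were called higher and 6 lower. Irf4, a factor of activated lymphocytes and dendritic cells, rose from 0.736, 0.614 and 1.06 CPM in PBS to 16.4, 14.1 and 10.8 CPM in IL-3 (log2 fold change 4.08, edgeR adjusted p = 2.74e-09). Irf8, a factor of monocyte and dendritic cell development, fell from 37.0, 34.7 and 33.4 CPM to 10.2, 11.6 and 10.3 CPM (log2 fold change -1.71, edgeR adjusted p = 3.14e-09). These related factors of the same family thus moved in opposite directions, without overlap of the groups. Ciita is induced in many cells through the interferon gamma receptor, whose chains went opposite ways. Its chain gene Ifngr2 rose from 130.1 ± 3.67 to 233 ± 10.7 CPM (SD, n = 3; log2 fold change 0.84, edgeR adjusted p = 7.56e-09). The other chain gene, Ifngr1, named after its value was seen, fell from 94.0 ± 5.97 to 66.1 ± 3.31 CPM (SD, n = 3; log2 fold change -0.51, edgeR adjusted p = 1.98e-05). Irf1, a factor that acts downstream of this receptor and was also named after its value was seen, had a log2 fold change of -0.45 (edgeR adjusted p = 0.00955). The X box factor genes Rfx5, Rfxap and Rfxank, named here after their values were seen, were not called, with log2 fold changes of -0.38, 0.01 and -0.13 (with library totals Rfx5 was called at -0.55 and Rfxap turned to -0.15).

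Of the 8 listed genes of class II antigen processing, all tested, 6 fell and 1 rose beside the 20.2% and 18.0% of all genes, at a median of -0.99 on the log2 scale, and the summed level went from 13673 to 14944 CPM in PBS to 6922 to 7701 CPM in IL-3. Ctss, cathepsin S, which digests the invariant chain, fell from 2444, 2359 and 2213 CPM to 1203, 1099 and 1152 CPM (log2 fold change -1.02, edgeR adjusted p = 9.17e-11). The lysosomal proteases Ctsb and Ctsd were as clear, with log2 fold changes of -1.07 (edgeR adjusted p = 7.47e-11) and -0.96 (edgeR adjusted p = 5.69e-11). The other proteases of the list, Ctsl and Lgmn, and the thiol reductase gene Ifi30 fell too, with log2 fold changes of -1.03, -0.78 and -1.18, and are named after their values were seen. The gene that rose was Marchf8, a ubiquitin ligase gene, at 0.18 on the log2 scale, and its call was lost with library totals. The monocyte and macrophage markers, described further on, had a median log2 fold change of -0.996 beside -0.99 for the processing genes, and their part in the fall of the processing genes was not tested. Of the 50-base stretches of Ctsd, 32.4% are shared, mostly with Gm49369.

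Class I presentation, which shows peptides from the cytosol to CD8+ T cells, had fewer genes higher than lower. Of 12 listed genes, all tested, 2 rose and 5 fell, which is 58.3% beside the 38.2% of all genes, at a median log2 fold change of -0.15. Those that rose, Calr and Pdia3, named for that reason, were lost with library totals (log2 fold changes of 0.0043 and 0.044), where the 6 genes called were lower. The immunoproteasome gene Psmb9 fell from 30.5 ± 4.72 to 13.5 ± 0.217 CPM (SD, n = 3; log2 fold change -1.18, edgeR adjusted p = 1.31e-06), and Psmb8 had a log2 fold change of -0.48 (edgeR adjusted p = 1.23e-05). B2m, the light chain of class I molecules, fell from 1543 ± 141 to 1183 ± 30.8 CPM (SD, n = 3; log2 fold change -0.38, edgeR adjusted p = 5.84e-05). The class I heavy chain genes H2-K1 and H2-D1, named after their values were seen, were not called, at 0.08 and 0.01 on the log2 scale, and turned to -0.08 and -0.15 with library totals, where H2-D1 was called lower.

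Other ligands for T cells changed in both directions. Of 14 listed genes 10 were tested, and 5 rose and 4 fell, beside 18.0% and 20.2% of all genes, and the median was 0.32 on the log2 scale. Tnfsf14, the ligand LIGHT of the tumour necrosis factor family, rose from 20.6, 25.3 and 21.8 CPM to 110.1, 118 and 110.3 CPM (log2 fold change 2.32, edgeR adjusted p = 2.01e-12). Icosl, the ligand of the costimulatory receptor ICOS and a relative of the B7 proteins, rose from 1.96, 2.10 and 1.59 CPM to 12.0, 16.6 and 15.2 CPM (log2 fold change 2.95, edgeR adjusted p = 6.05e-09). Both were thus well apart between the groups. Vsir, which encodes the inhibitory protein VISTA, fell from 188, 176 and 177 CPM to 83.2, 88.9 and 93.2 CPM (log2 fold change -1.03, edgeR adjusted p = 1.61e-09).

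Of 8 listed partners of the costimulatory proteins and adaptors of CD40, 6 were tested, and 4 rose, beside 18.0% of all genes, with a median of 0.29 on the log2 scale. Traf1, an adaptor of CD40 and related receptors, rose from 2.78, 6.05 and 2.47 CPM to 16.1, 19.99 and 19.1 CPM (log2 fold change 2.29, edgeR adjusted p = 1.10e-06). Traf6 and Traf2 rose by less, with log2 fold changes of 0.41 (edgeR adjusted p = 0.00333) and 0.29 (edgeR adjusted p = 0.0406). With library totals in place of TMM, Traf1 alone of the list was called, and 2 genes were called without PBS replicate 1, without PBS replicate 2 or without IL-3 replicate 1. The genes for the T cell proteins Ctla4 and Cd40lg had 0 counts in all 6 libraries.

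**Figure D4:**
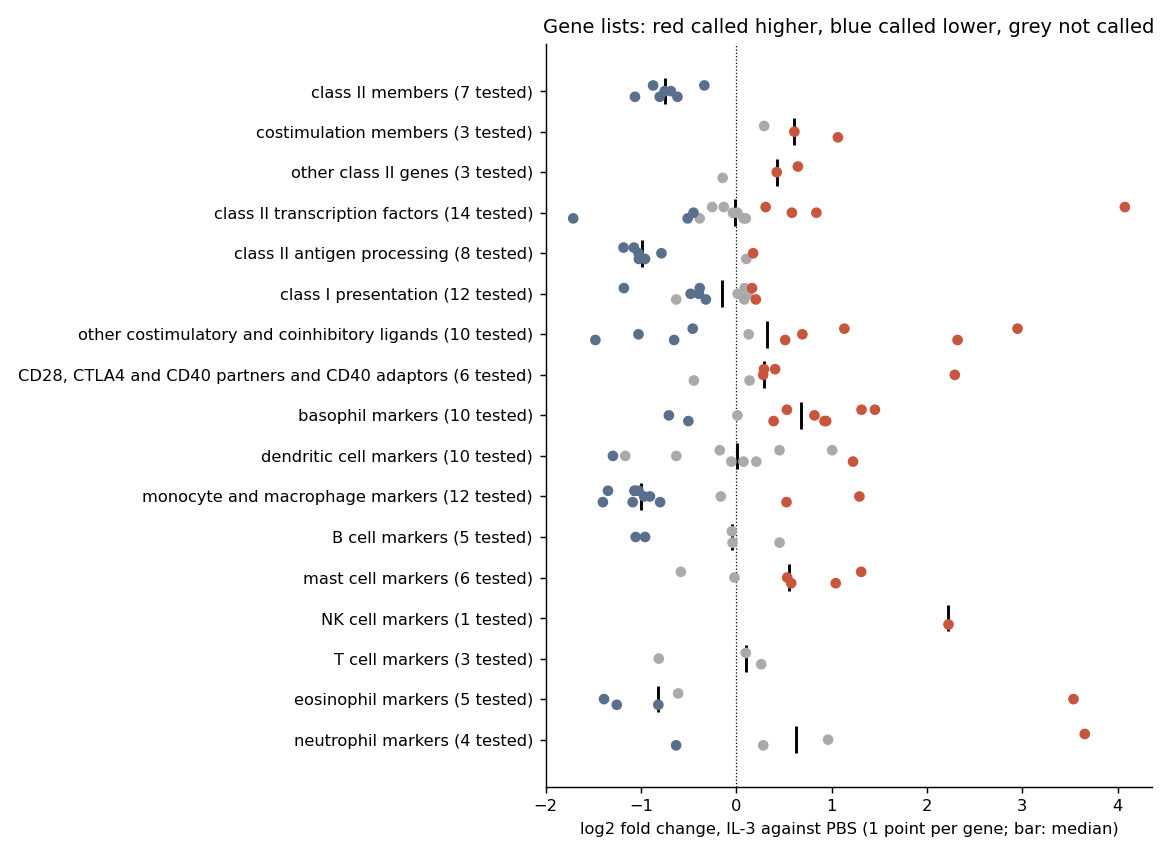
Log2 fold change of IL-3 against PBS (horizontal axis), 1 point per tested gene, for the class II and costimulation genes, the pathway lists and the marker lists (rows), in red where called higher, blue where called lower and grey where not called, with a bar at the median of the list. The medians of the class II genes (-0.75), the antigen processing genes (-0.99) and the monocyte and macrophage markers (-0.996) lie to the left of 0. Some antigen processing genes and some monocyte and macrophage markers lie to the right of it. The median of the dendritic cell markers is near 0 (0.01).

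The libraries held basophil RNA at a high level. Mcpt8, a protease gene that defines mouse basophils, stood at 3066 ± 171 CPM with PBS and 5895 ± 178 CPM in IL-3 (SD, n = 3), and Prss34 at 5615 ± 323 and 5661 ± 183 CPM. Of the 10 basophil markers, 7 rose and 2 fell, beside 18.0% and 20.2% of all genes, and their summed level went from between 11225 and 12492 CPM to between 17493 and 17737 CPM.

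Markers of other cells that carry class II were present too. Of the 12 monocyte and macrophage markers 9 fell and 2 rose, beside 20.2% and 18.0% of all genes, at a median of -0.996 on the log2 scale, and their summed level went from 12039 to 13002 CPM in PBS to 6286 to 6920 CPM in IL-3. Csf1r, the receptor for the monocyte growth factor, fell from 148 ± 5.28 to 85.2 ± 5.22 CPM (SD, n = 3; log2 fold change -0.80, edgeR adjusted p = 4.66e-08), and Lyz2, the most abundant of these markers, had a log2 fold change of -0.97. The 9 markers that fell moved in the same direction as the 7 class II genes, and the 2 that rose moved the other way. The part of monocytes and macrophages in the fall of the class II genes was not tested.

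Few of the dendritic cell markers were called. Of 12 listed genes 10 were tested, 1 rose and 1 fell, which is 20% beside the 38.2% of all genes, and the summed level was 92.6 to 105 CPM with PBS and 85.3 to 92.6 CPM in IL-3. The defining marker Flt3 had 1.09 ± 0.794 CPM with PBS and 1.154 ± 0.233 CPM in IL-3 (SD, n = 3), and Zbtb46 had 1.20 ± 0.130 and 0.782 ± 0.202 CPM. Itgax, the most abundant of the list, had a log2 fold change of -0.17 (edgeR adjusted p = 0.0531) and was called lower with library totals (-0.34), and Cd209a had 0 counts in all 6 libraries. The part of dendritic cells in the class II levels was not tested.

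B cell markers summed to 17.8 to 20.1 CPM with PBS and 11.6 to 13.3 CPM in IL-3, with 2 of 5 tested genes lower, beside 20.2% of all genes. Cd79a was not called (log2 fold change 0.45) and Ighm, the most abundant, fell from 8.81 ± 0.969 to 4.54 ± 0.401 CPM (SD, n = 3). The part of B cells in the class II levels was not tested. Mast cell markers summed to 840.5 to 945 CPM with PBS and 1437 to 1571 CPM in IL-3, with 4 of 6 tested genes higher, beside 18.0% of all genes, Kit and Cpa3 among them (log2 fold changes of 0.58 and 0.53). T cell markers summed to at most 5.64 CPM, and Cd3d among them was not called (log2 fold change 0.26). NK cell markers summed to at most 8.24 CPM with PBS and at least 28.8 CPM with IL-3. Most of this sum was Nkg7, the 1 gene of them tested, at a mean of 6.29 CPM with PBS and 29.3 CPM with IL-3 (log2 fold change 2.22). The other 5 NK cell markers were not tested and had group means of at most 0.541 CPM. Eosinophil markers stood at 155 to 173 CPM with PBS and 95.02 to 136 CPM in IL-3 (3 of 5 tested genes lower, 1 higher). Neutrophil markers stood at 64.1 to 101.4 CPM and 63.8 to 109 CPM in that order (1 of 4 tested genes lower, 1 higher). Both counts stand beside 20.2% lower and 18.0% higher among all genes.

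The genes whose level followed the class II chains and Cd74 most closely over the 6 libraries were Rrm2, a subunit of ribonucleotide reductase, Gm13341, and Sptbn1, a spectrin chain. Their Pearson r with the mean log2 level of H2-Aa, H2-Ab1, H2-Eb1 and Cd74 was 0.995 for Rrm2, 0.995 for Gm13341 and 0.995 for Sptbn1. Among 6689 genes of at least 20 CPM on average, 417 had an r above 0.95. Since the 6 points share the split into PBS and IL-3, these values describe mainly that split.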

How the data were processed

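Poly(A) RNA of CD49b-enriched BMBAs was measured in 6 libraries, 3 given PBS and 3 given IL-3. The deposited values were raw read counts per gene symbol in 1 table. Per the study's methods, the authors trimmed reads with Cutadapt 3.4, mapped them with Bowtie2 to reference RNA and counted reads per gene. The methods name the build GRCm38 and the submitters' processing notes name GRCm39, and coordinates printed here are those of GENCODE M21 (GRCm38). No molecular identifiers are described, so PCR copies counted as reads. The labels name a column kit and the methods direct lysis for extraction.

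Counts were tested with edgeR 4.0.16 in R 4.3.3 (filterByExpr, TMM, quasi-likelihood F test, group as the only term, two-sided, Benjamini-Hochberg over 16675 genes). Alternatives were DESeq2 1.42.0 size factors and its Wald test, library totals, other filters, edgeR's exact test, limma-voom (limma 3.58.1), the replicate numbers as a block, a threshold of 0.01 and leaving out each library. The scripts were tested on simulated counts. CPM per kb used the union of exons. No pair of libraries agreed within sampling noise (chi-square per degree of freedom at least 2.75).

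The genes and lists were chosen with earlier results of these data known. Named in each pathway list were up to 3 called genes of lowest adjusted p, in each marker list the first 2 and the most abundant gene, and for likeness the 3 genes of highest Pearson r on log2(CPM + 0.5). Genes named outside this rule are said to be so, and 1 gene that the rule names is not reported here.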

Additional observations from a re-analysis of the deposited data

How the results depend on the processing

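Across 14 alternatives, 8 of the 10 genes kept their direction and their side of the threshold. H2-DMb1 (log2 fold change -0.50 to -0.29, adjusted p from 0.00158 to 0.0814) and Ciita (-1.33 to -0.80, adjusted p from 0.0149 to 0.164) lost their calls in some, with the DESeq2 Wald test at 0.0692 and 0.164 in that order. The count of called genes among the 10 was 9, with 7 under the DESeq2 Wald test, 7 at the threshold of 0.01, 8 with the replicate block and 7 to 9 when 1 library was left out. None of these directions reversed. Of the 36 called genes of the pathway lists 27 kept their side throughout, and the others, Calr, Cd276, Marchf8, Nfyc, Pdia3, Tap1, Traf2, Traf5 and Traf6, lost their call under at least 1 alternative. Of 16 other genes given with a difference, 10 kept theirs, and Rfx5, Itgax and H2-D1, which were not called with TMM, were called lower with library totals. There Rfxap turned to -0.15 and H2-K1 to -0.078, both uncalled, and H2-D1 to -0.15, and with 1 library left out Rfxap ranged from -0.052 to 0.066, Rfxank from -0.23 to 0.028 and H2-D1 from -0.0095 to 0.037. With library totals 1698 genes were called higher in place of 3003. The list of costimulation partners and CD40 adaptors had 4 genes called, against 1 with library totals, 2 with the DESeq2 Wald test, 2 with the replicate block, 2 at the threshold of 0.01 and 2 to 4 when 1 library was left out. The cause was not tested, except that a lower threshold calls fewer genes by construction.

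No pairing of the libraries by replicate number was seen: deviations from the group means of same-numbered libraries correlated at -0.0087, -0.016 and -0.022, and 0 of 6 libraries correlated best with their own number. With 3 libraries per group, this cannot tell whether same-numbered cultures shared a mouse or a batch. With the numbers as a block, 2842 genes were called higher and 3247 lower, against 3003 and 3372 without it. Of the levels per kb, 9 of 10 moved by more than 1 SD with the longest transcript as the length. Depth limits Ciita and Cd80 most, with at most 35 counts in a library.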

Other observations

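Some dendritic cell and costimulation genes varied within a group. Ccr7, a homing receptor of migrating dendritic cells, had 7, 104 and 6 counts in PBS and 11, 17 and 25 counts in IL-3, so that PBS replicate 2 stood apart. Ccl22, a chemokine of activated dendritic cells, had 6, 30 and 0 counts in PBS and 49, 18 and 3 in IL-3. The 3 IL-3 libraries thus differed in Ccl22 as well. Cd28, a T cell gene, had 7.04, 12.4 and 8.63 CPM in PBS and 3.26, 12.7 and 4.34 CPM in IL-3, with replicate 2 highest in both groups. The neutrophil gene S100a9 had 40, 319 and 96 counts in PBS and 173, 172 and 576 counts in IL-3. These genes were singled out after their values were seen.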
